A study of Mus musculus with 4 samples.

Results

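The TNF receptor superfamily and its ligands were described in group 2 innate lymphoid cells (ILC2) that lacked Ets1 and in littermate control ILC2. The 37 members were taken by gene symbol, 22 receptors and 15 ligands, and each gene was read from its brightest Affymetrix probe set with a single gene symbol. Of these, 34 had such a probe set among the 18194 genes read in this way, and Tnfrsf26, Tnfsf12 and Tnfsf18 had none. The list was drawn up by family membership, with earlier results of these data known. Each group held 2 arrays, 1 per sample, so n = 2 per group throughout, and the number of arrays limits the precision.

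ILC2 are tissue lymphocytes without antigen receptors that release type 2 cytokines. All 4 samples came from C57BL/6 mice. The cells had been kept for 2 weeks with IL-7 and IL-33 on OP9-DL1 stroma, mouse marrow-derived cells made to display a Notch ligand, and were then sorted for ICOS, a costimulatory receptor. One group carried a deletion of Ets1, which encodes an ETS family transcription factor, and the other came from control littermates. The sources used here do not state how the gene was deleted, in which cells, the age of the mice, or whether animals were pooled. They also do not say that arrays of 1 group stem from different mice or cultures, and the p-values therefore reflect array-to-array spread that may be technical.

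Ligands of the TNF superfamily are mostly trimeric proteins of the cell surface that can be shed, and they bind receptors with cysteine-rich repeats outside the cell. Receptors with a death domain can start apoptosis or necroptosis, while the others recruit TRAF adaptors that switch on NF-kB and MAP kinases. In ILC2, receptors such as GITR (Tnfrsf18), DR3 (Tnfrsf25) and TNFR2 (Tnfrsf1b) are known to support cytokine release and survival, and OX40 ligand (Tnfsf4) on ILC2 is known to costimulate T cells.

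Ets1 read 1272 and 1231 intensity units in the controls and 138 and 180 in the Ets1-deleted arrays. Its other 3 probe sets were lower as well, with log2 differences from -3.51 to -2.78, and 2 of them were under the limit for testing, given below, in both Ets1-deleted arrays. Whether these probe sets match the deleted stretch of the gene is not known here, so the remaining signal cannot be read as remaining transcript. Of 10 tested ILC2 markers, 6 were higher and 2 lower in the arrays without Ets1. The higher ones were Thy1 (log2 difference 1.91), Rora (1.29), Il17rb (0.93), Il5 (0.83), Il2ra (0.81) and Il13 (0.69). Gata3 and Il7r did not pass. The lower ones were Icos, the sorting marker (-0.38, adjusted p = 0.0232), and Klrg1 (-1.60, adjusted p = 7.11e-07), and Gata3, Il7r and Icos lay between 1880 and 6293 units in all 4 arrays.

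Markers of other cells also differed, in some lists through 1 gene. The summed level of 12 T cell markers was 3726 to 3873 units in the controls and 6596 to 6906 in the Ets1-deleted arrays, with 4 of 7 tested higher and 1 lower. That of 12 myeloid markers was 2283 to 2513 units and 4275 to 4314, with 9 of 9 tested higher. Itgam, Cd14 and Elane were too dim to test, and Itgam and Elane overlapped between the groups. Each sum was also taken without the gene of the list that differed most in intensity, a choice made after the values were seen. The T cell sum without Cd3e was 3624 and 3792 units in the controls and 5792 and 5915 in the Ets1-deleted arrays, and the myeloid sum without S100a9 was 1917 and 2111 against 3437 and 3459. The mast cell sum was 2307 to 2328 units and 3811 to 3982, with 5 of 7 tested higher, but 2221 and 2250 against 2484 and 2550 without Cpa3. Of the 6 tested genes of this list left, 4 were higher and 0 lower. Mcpt8, the brightest of them, read 1337 and 1385 units against 1097 and 1193 and did not pass. It made up a large part of both sums, so neither can be read as mast cells alone. The NK cell sum was 5386 to 5669 units and 7424 to 8547, with 2 of 4 tested higher and 1 lower, but 1065 and 968 against 1258 and 1139 without Gzma. The B cell sum was 839 to 847 units and 552 to 562, and its fall was that of Cd79b: the other 6 markers summed to 458 and 467 units against 460 and 479. The stromal sum was 2981 to 3189 units and 3281 to 3282, with 1 of 8 tested higher and 2 lower, but without Timp3 it went the other way, with 3063 and 2829 against 2403 and 2531. Among the markers that were higher, Adgre1, Cpa3, Hdc and Klrc1 lay under the limit for testing in both controls. They were tested through their Ets1-deleted values, and Cd79b likewise through its control values. The part of these other cells in the values that follow was not tested. In such bulk samples, fewer cells of a type and less RNA per cell cannot be told apart.

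Members of the family were higher and lower in the Ets1-deleted ILC2, with more rises than falls. Of the 28 members bright enough to test, 13 rose and 4 fell at an adjusted p of 0.05, and 11 did not pass. The strongest rises were in the ligand gene Tnfsf14, by a log2 difference of 1.82 ± 0.11 (SE, n = 2 per group), and in the receptor gene Tnfrsf9, by 1.35 ± 0.12. The steepest fall was in the receptor gene Tnfrsf13c, by 1.52 ± 0.11 on the log2 scale. A gene was tested where its mean over the 4 arrays reached 97.44 intensity units, the median of all probe sets, with limma and Benjamini-Hochberg adjustment over all 10873 tested genes. Differences are Ets1-deleted minus control on the log2 scale, ± SE.

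Over all tested genes, 26.7% passed the same threshold, 13.9% as higher and 12.8% as lower. Among tested members 60.7% passed, among the 20 tested receptors 55.0%, and among the 8 tested ligands 75.0%. The median absolute log2 difference was 0.51 for tested receptors, 0.69 for tested ligands and 0.19 for all tested genes. With 2 arrays per group, groups without overlap were common. They were seen for 15 of 20 tested receptors, 7 of 8 tested ligands and 6803 of all 10873 tested genes. The filter can tilt such a count, because a gene dim in the controls was tested if its Ets1-deleted values were high: among called members this held for Tnfsf4, which lay under the limit in both controls. With no filter, 12 of 21 receptors and 6 of 13 ligands passed, against 15.9% of 18194 genes. Replicates of a member differed by a median of 0.118 on the log2 scale in the controls and 0.129 in the Ets1-deleted arrays, and by at most 0.371.

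**Figure D1:**
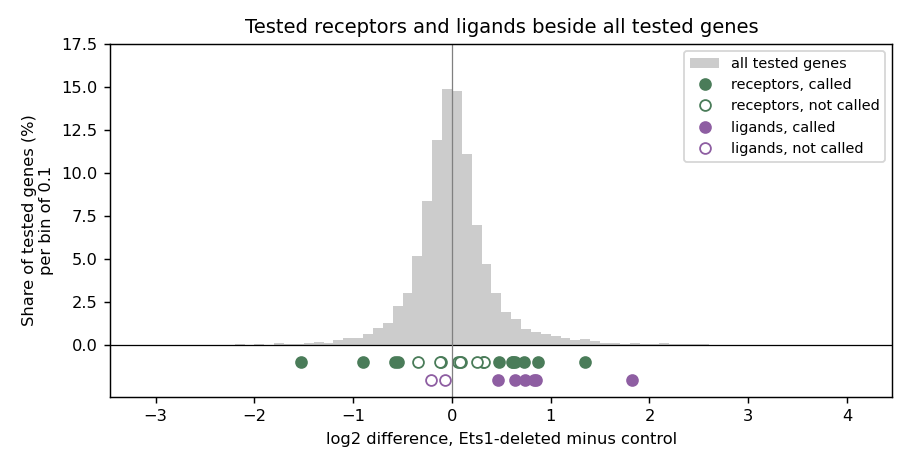
Histogram of the log2 difference (Ets1-deleted minus control) of all 10873 tested genes, as a share per bin of 0.1, with the 28 tested members as points below it at heights without meaning. Called members lie on both sides of 0 for receptors and to the right of 0 for ligands, with Tnfsf14 at 1.82 and Tnfrsf13c at -1.52.

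Among the 8 costimulatory receptors, 4 rose, 1 fell and 3 did not pass. Tnfrsf9 encodes 4-1BB, an activation-induced receptor of lymphocytes. It read 1621 and 1389 units in the controls and 3915 and 3742 in the Ets1-deleted arrays, a 2.55-fold rise (adjusted p = 4.36e-06). Its second bright probe set rose less, with a log2 difference of 0.96, and a dim one, with values of 72.8 to 76.2 units in the 4 arrays, gave 0.04. With the mean over the 3 probe sets the difference was 0.79.

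Cd27, a receptor of T cells, NK cells and progenitors, read 540 and 466 units in the controls and 779 and 891 in the Ets1-deleted arrays. The rise was 0.73 ± 0.12 (adjusted p = 0.000821), and the groups did not overlap. T cell markers were set beside it after their values were seen. Of 7 tested, 4 were higher in the same arrays, by log2 differences of 0.50 (Cd3g), 2.58 (Cd3d), 3.11 (Cd247) and 3.28 (Cd3e). Cd3e went from 103 and 81.6 units to 803 and 992. Zap70 was lower (-1.13), and Cd6 and Lat did not pass. Cd4, Cd8a, Cd8b1 and Cd5 lay between 65.7 and 97.4 units in all 4 arrays, and Trat1 was not tested either. The part of such cells in the Cd27 value was not tested.

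Tnfrsf18, which encodes the costimulatory receptor GITR, read 961 and 1175 units in the controls and 1617 and 1691 in the Ets1-deleted arrays. It rose by 0.64 ± 0.12 (adjusted p = 0.00226). Tnfrsf8, for the activation marker CD30, read 779 and 714 units in the controls and 1288 and 996 in the Ets1-deleted arrays. Its rise was 0.60 ± 0.13 (adjusted p = 0.00543), and the Ets1-deleted arrays differed more from each other than those of any other tested member, by 0.371 on the log2 scale.

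Tnfrsf1b went the other way. It encodes TNFR2, the TNF receptor without a death domain, and read 1610 and 1590 units in the controls and 1104 and 1083 in the Ets1-deleted arrays. This was a fall of 0.55 ± 0.11 on the log2 scale (log2 difference -0.55, adjusted p = 0.00243), and the other Tnfrsf1b probe set gave -0.45. In the RefSeq gene table Tnfrsf1b and Tnfrsf8 are neighbours with no protein-coding gene between them, and they moved in opposite directions.

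Tnfrsf4, for OX40, did not pass: it read 98.5 and 84.1 units in the controls and 108 and 118 in the Ets1-deleted arrays, near the limit for testing (log2 difference 0.31 ± 0.12, adjusted p = 0.0773). With the floor of each array subtracted the difference was 0.72 and passed (adjusted p = 0.0407). With the mean over probe sets it also passed (adjusted p = 0.0473). Tnfrsf4 has 1 probe set, so its difference stayed at 0.31 there and only the values of other genes changed. The difference was 0.20 without control 2 (adjusted p = 0.493) and 0.25 without Ets1-deleted 2 (adjusted p = 0.235). Tnfrsf4 lies next to Tnfrsf18. Cd40 read 212 and 246 units in the controls and 200 and 163 in the Ets1-deleted arrays, a difference of -0.34 ± 0.13 (adjusted p = 0.0773). It passed when control 1 was left out (-0.45, adjusted p = 0.0416) and when Ets1-deleted 1 was left out (-0.49, adjusted p = 0.0199), but was at -0.23 without control 2 (adjusted p = 0.395), -0.19 without Ets1-deleted 2 (adjusted p = 0.367) and -0.11 with the mean over probe sets (adjusted p = 0.363). Its other probe sets gave -0.06 and 0.07. Tnfrsf14, for the LIGHT receptor HVEM, overlapped between the groups, with 133 and 155 units against 137 and 129.

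**Figure D2:**
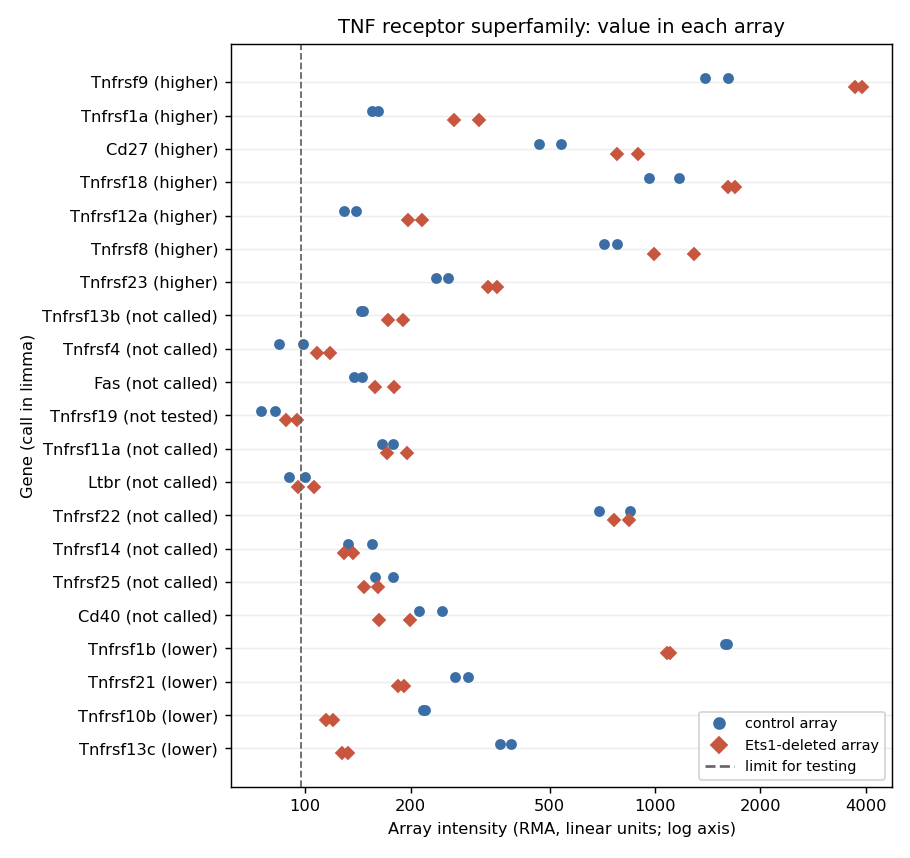
Intensity of the 21 receptor genes with a probe set in each of the 4 arrays, on a log axis, ordered by log2 difference, with control arrays as circles and Ets1-deleted arrays as diamonds; the dashed line is the limit for testing at 97.44 units. Tnfrsf9 sits at 1389 to 1621 units in the controls and 3742 to 3915 in the Ets1-deleted arrays, and Tnfrsf13c at 360 to 388 and 127 to 133.

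Of the 5 receptors with a death domain, 1 rose, 2 fell and 2 did not pass. Tnfrsf1a encodes TNFR1, through which TNF can signal survival or death. It read 155 and 162 units in the controls and 314 and 266 in the Ets1-deleted arrays, a rise of 0.87 ± 0.12 (adjusted p = 0.00018). The pair of TNF receptor genes thus differed in direction, Tnfrsf1a higher and Tnfrsf1b lower.

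Tnfrsf10b, the mouse receptor for the death ligand TRAIL and a p53 target, read 217 and 221 units in the controls and 115 and 120 in the Ets1-deleted arrays. The log2 difference was -0.90 ± 0.11 (adjusted p = 6.35e-05), -0.47 with its other probe set and -1.41 with the array floor subtracted. Tnfrsf21, for death receptor DR6, read 268 and 291 units in the controls and 184 and 192 in the Ets1-deleted arrays (-0.57 ± 0.11, adjusted p = 0.00222), and its other probe set gave -0.27. In both genes each Ets1-deleted array lay below each control.

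Fas, the receptor of Fas ligand, read 145 and 138 units in the controls and 159 and 180 in the Ets1-deleted arrays and did not pass (0.26 ± 0.11, adjusted p = 0.123). Tnfrsf25, which encodes DR3, read 158 and 178 units against 147 and 161, and the groups overlapped (-0.12 ± 0.12, adjusted p = 0.494).

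The steepest fall of all members was in Tnfrsf13c, which encodes the receptor for BAFF, a survival factor of B cells. It read 360 and 388 units in the controls and 133 and 127 in the Ets1-deleted arrays, 2.88-fold lower (log2 difference -1.52 ± 0.11, adjusted p = 9.58e-07). Cd79b, a chain of the B cell receptor complex, was lower in the same arrays, from 381 and 380 units to 91.6 and 83.5. The B cell genes Cd79a, Ms4a1, Pax5, Ebf1 and Blnk lay between 61.0 and 84.6 units in all 4 arrays, under the limit for testing, and the other tested B cell marker, Vpreb3, did not pass (0.09, adjusted p = 0.604). The part of B cells in the Tnfrsf13c value was not tested. Tnfrsf13b, for the related receptor TACI, read 146 and 144 units in the controls and 173 and 190 in the Ets1-deleted arrays. This gene has 1 probe set, so the mean over probe sets could move its adjusted p but not its difference. Its difference of 0.32 ± 0.11 stayed just short of the threshold (adjusted p = 0.0527) and passed under 6 alternatives, with adjusted p between 0.0217 and 0.0485. Leaving out control 1, control 2 or Ets1-deleted 2 gave adjusted p values of 0.172, 0.209 and 0.202, and the gene's own variance gave 0.198.

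Tnfrsf12a, for the TWEAK receptor Fn14, rose by 0.62 ± 0.11 (adjusted p = 0.0016), from 129 and 140 units to 215 and 197, and its other probe set gave 0.81. Tnfrsf11a, for RANK, read 166 and 178 units in the controls and 171 and 195 in the Ets1-deleted arrays (0.09 ± 0.12, adjusted p = 0.621). Ltbr, the lymphotoxin beta receptor gene, lay at the limit with 100 and 89.9 units against 106 and 95.3 (0.08 ± 0.12, adjusted p = 0.65). Tnfrsf19, for the receptor TROY, stayed under the limit with 82.2 and 74.7 units against 88.4 and 95.0 and was not tested. Ltbr lies between Cd27 and Tnfrsf1a, with 1 other protein-coding gene on each side, and while both outer genes rose, its groups overlapped.

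Tnfrsf22 and Tnfrsf23 are neighbours and encode decoy receptors for TRAIL, which bind it without a death domain. Tnfrsf23 rose from 256 and 237 units to 353 and 332 (0.48 ± 0.11, adjusted p = 0.0073). Without control 2 the Tnfrsf23 call was lost (0.42, adjusted p = 0.0606), with the lone control assumed to vary like the other group. Tnfrsf22 overlapped between the groups, with 850 and 691 units against 842 and 763 (0.06 ± 0.13, adjusted p = 0.76), but its other probe sets gave -0.69 and 0.19. The pair is similar in sequence, and 1 probe set is listed for both, so how far their probe sets can tell them apart is uncertain.

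Of the 8 tested ligands, 6 rose, 0 fell and 2 did not pass. The 5 other ligand genes with a probe set were too dim to test. Tnfsf14 encodes LIGHT, which binds HVEM and the lymphotoxin beta receptor. It read 356 and 389 units in the controls and 1297 and 1330 in the Ets1-deleted arrays, 3.53-fold higher (adjusted p = 2.14e-07). Its other probe set also separated the groups, with 158 and 175 units against 440 and 481, a log2 difference of 1.46. The genes of its receptors, Tnfrsf14 and Ltbr, did not pass.

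Tnfsf9, for the ligand of 4-1BB, read 264 and 250 units in the controls and 476 and 452 in the Ets1-deleted arrays (0.85 ± 0.11, adjusted p = 0.000105). The genes of this ligand and of its receptor Tnfrsf9 therefore both rose. Tnfsf9, Cd70 and Tnfsf14 follow each other with no protein-coding gene between them. Cd70, for the ligand of CD27, read 70.9 and 75.8 units against 74.7 and 76.4 and was under the limit for testing.

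Tnfsf4, for OX40 ligand, read 77.2 and 78.0 units in the controls and 147 and 130 in the Ets1-deleted arrays (0.83 ± 0.11, adjusted p = 0.000176). The groups did not overlap, both controls lay under the limit for testing, and with the array floor subtracted the difference was 1.93. Tnfsf11, for RANK ligand, rose from 105 and 99.2 units to 169 and 150 (0.64 ± 0.11, adjusted p = 0.00134). For this gene the floor subtraction gave 1.16 and the mean over probe sets 0.40, as its second probe set was dim and gave 0.17. All 9 tested myeloid markers were higher in the same arrays, Adgre1 among them with both controls under the limit. Itgam, Cd14 and Elane were too dim to test. The part of myeloid cells in the ligand values was not tested.

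**Figure D3:**
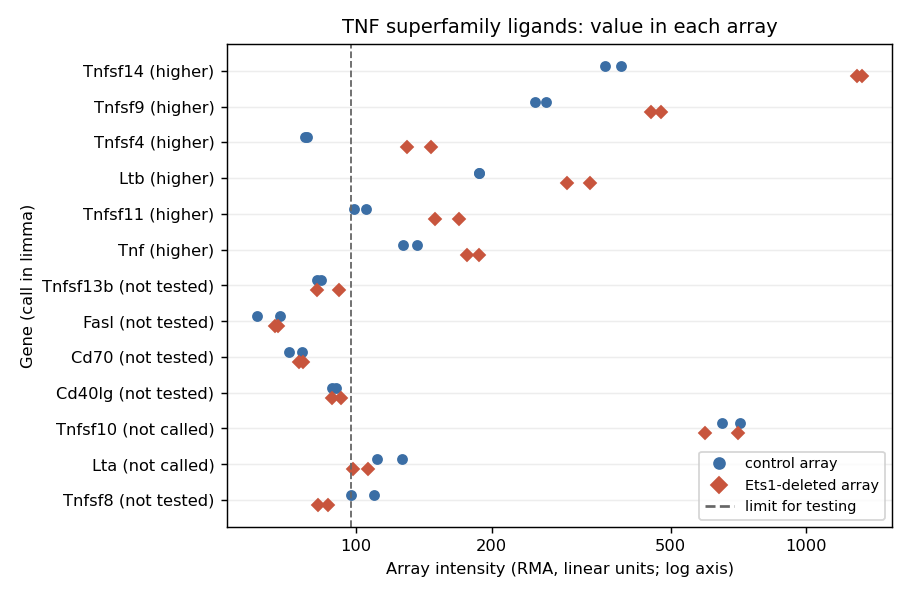
Intensity of the 13 ligand genes with a probe set in each of the 4 arrays, on a log axis, ordered by log2 difference, with control arrays as circles and Ets1-deleted arrays as diamonds; the dashed line is the limit for testing at 97.44 units. The 6 upper genes separate without overlap, Tnfsf14 most, and Lta and Tnfsf8 separate in the other direction. Of all 10873 tested genes, 6803 separate in this way. Tnfsf13b, Fasl, Cd70, Cd40lg and Tnfsf8 lie at or under 110 units.

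Tnf, Lta and Ltb are neighbours in the major histocompatibility region and encode TNF and the lymphotoxin chains. Ltb, whose product anchors lymphotoxin at the membrane, read 187 units in both controls and 295 and 331 in the Ets1-deleted arrays (0.74 ± 0.11, adjusted p = 0.000413). Tnf itself rose from 137 and 127 units to 187 and 176 (0.46 ± 0.11, adjusted p = 0.00861). Without control 2 the Tnf call was lost (0.41, adjusted p = 0.0701), and with the array floor subtracted the difference was 0.73. Lta, for lymphotoxin alpha, read 111 and 127 units in the controls and 98.6 and 106 in the Ets1-deleted arrays and did not pass (-0.21 ± 0.12, adjusted p = 0.206).

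The promoters of Tnf and Ltb are shown because they were the called members whose window held 1 of the words searched, a choice made after the matches were seen, and those of Tnfsf14 and Tnfrsf13c because these genes had the largest rise and the largest fall. Each sequence runs 5′ to 3′ on the strand of the gene, from 250 bases before to 50 after its start in RefSeq (GRCm38.p6), and capitals mark a match to a word on either strand.
Tnf (chr17:35201958-35202257, minus strand): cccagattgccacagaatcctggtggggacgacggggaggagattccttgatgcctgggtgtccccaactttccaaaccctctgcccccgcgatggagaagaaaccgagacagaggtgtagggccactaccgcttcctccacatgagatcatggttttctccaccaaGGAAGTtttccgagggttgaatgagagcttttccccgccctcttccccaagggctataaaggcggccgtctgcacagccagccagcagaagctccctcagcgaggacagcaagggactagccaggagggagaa
Ltb (chr17:35194257-35194556, plus strand): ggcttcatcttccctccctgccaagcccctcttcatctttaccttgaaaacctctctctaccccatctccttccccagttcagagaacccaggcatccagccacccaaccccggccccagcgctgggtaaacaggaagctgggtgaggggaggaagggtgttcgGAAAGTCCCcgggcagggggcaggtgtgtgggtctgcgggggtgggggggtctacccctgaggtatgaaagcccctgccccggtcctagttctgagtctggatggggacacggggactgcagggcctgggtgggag
Tnfsf14 (chr17:57194132-57194431, minus strand): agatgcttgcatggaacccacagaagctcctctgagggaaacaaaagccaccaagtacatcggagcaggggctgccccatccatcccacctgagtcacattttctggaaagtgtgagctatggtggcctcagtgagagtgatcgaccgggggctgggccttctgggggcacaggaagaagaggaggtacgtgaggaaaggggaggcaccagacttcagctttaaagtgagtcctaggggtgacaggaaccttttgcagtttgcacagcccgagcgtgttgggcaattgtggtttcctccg
Tnfrsf13c (chr15:82224331-82224630, minus strand): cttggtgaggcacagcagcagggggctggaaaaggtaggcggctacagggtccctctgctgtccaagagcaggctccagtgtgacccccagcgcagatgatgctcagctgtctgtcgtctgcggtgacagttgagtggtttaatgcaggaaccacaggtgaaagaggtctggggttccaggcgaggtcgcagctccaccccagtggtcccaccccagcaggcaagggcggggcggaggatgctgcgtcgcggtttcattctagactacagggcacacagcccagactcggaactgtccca

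The words searched were CCGGAAGT, which many ETS factors bind, its shorter core GGAAGT, and the NF-kB word GGGACTTTC. The longer ETS word contains the shorter one. Promoters were listed for 28 of the 37 members, 32 windows in all. The Tnf window held GGAAGT at bases 168 to 173, counted from its 5′ end, and the Ltb window held the NF-kB word on the opposite strand at bases 165 to 173. Of the 32 member windows, 0 held CCGGAAGT, 7 held GGAAGT and 1 held GGGACTTTC. Among all 32851 windows of this length the shares were 3.89%, 23.8% and 0.353%. By gene, GGAAGT was found for 7 of 28 members, beside 26.5% of 27025 genes. These were 1 of 11 members that rose, 0 of 3 that fell and 4 of 9 that were tested and did not pass. The others were Fasl, not tested, and Tnfsf18, without a probe set. Such counts are too small to compare the calls. The Tnfrsf9 windows, of the receptor gene with the largest rise, held 0 of the words. A match describes letters only, and binding was not measured.

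Tnfsf10, for TRAIL, was well above the limit for testing, but its groups overlapped. It read 712 and 649 units in the controls and 703 and 595 in the Ets1-deleted arrays (-0.07 ± 0.12, adjusted p = 0.716). Its other probe sets gave -0.13 and 0.26. Its receptor gene Tnfrsf10b fell and the decoy gene Tnfrsf23 rose in the same arrays. The other decoy gene, Tnfrsf22, did not pass (0.06, adjusted p = 0.76 in limma), and its other probe sets gave -0.69 and 0.19.

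The 6 members under the limit for testing, Tnfrsf19, Tnfsf8, Tnfsf13b, Fasl, Cd70 and Cd40lg, had values from 60.4 to 110 units. Tnfsf8, for the ligand of CD30, read 110 and 97.6 units in the controls and 82.2 and 86.8 in the Ets1-deleted arrays. Tnfsf13b, for BAFF, read 81.9 and 83.5 units against 82.0 and 91.8. Fasl, for Fas ligand, read 60.4 and 67.8 units against 67.1 and 66.2, and Cd40lg, for CD40 ligand, 90.5 and 88.4 against 92.8 and 88.4. With no filter none of the 6 passed, and their adjusted p lay between 0.0808 and 0.938.

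Among genes listed as acting downstream of the receptors, Tnfaip3 rose and Traf5 and Ripk3 fell by 1.5-fold or more. Whether TNF family receptors had a part in these values was not tested. Of 44 listed adaptors, ligases, kinases, inhibitors and NF-kB subunits, 40 had a probe set and all were tested; 2 rose and 8 fell, 25.0%, beside the 26.7% of all tested genes. The list median was -0.08, against 0.00 for all tested genes. Tnfaip3, which encodes the NF-kB inhibitor A20, read 677 and 634 units in the controls and 1571 and 1294 in the Ets1-deleted arrays. This was a rise of 1.12 ± 0.12 (adjusted p = 3.14e-05 in limma), and of 0.825 with the mean over its probe sets. Traf5, an adaptor of CD27, OX40 and other costimulatory receptors, fell from 290 and 278 units to 153 and 138 (-0.97 ± 0.11, adjusted p = 4.77e-05), and with the mean over its probe sets the difference was -0.50. Ripk3, the necroptosis kinase gene, fell from 1107 and 1046 units to 688 and 743 (-0.59 ± 0.11, adjusted p = 0.00189).

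Of the other called signalling genes, all under 1.5-fold and named here after their values were seen, the deubiquitinase gene Cyld (-0.58), the IkB kinase gene Ikbkb (-0.50), Sharpin of the linear ubiquitin ligase (-0.47) and the NF-kB inhibitor gene Nfkbia (-0.44) fell. Ikbkb was at -0.30 with the mean over probe sets and still passed. The Nfkbia call was lost with that mean (-0.07, adjusted p = 0.543) and without control 2 (-0.40, adjusted p = 0.0839). The ligase gene Birc3 (-0.40), Tnip1, whose product binds A20 (-0.36), and Mlkl, the executor of necroptosis (0.43), passed as well. Birc3 was lost without control 1 (-0.28) or Ets1-deleted 1 (-0.36), Tnip1 without any 1 of the 4 arrays (-0.40 to -0.31), and Mlkl without control 2 (0.34) or Ets1-deleted 2 (0.27). All 3 were lost with the array floor subtracted, and Mlkl also with no filter (adjusted p = 0.0603). The NF-kB subunit genes Rela (-0.09), Relb (0.00), Rel (-0.16) and Nfkb2 (0.18) and the adaptor genes Traf1 (0.24), Traf2 (0.14) and Traf6 (-0.14) did not pass.

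**Figure D4:**
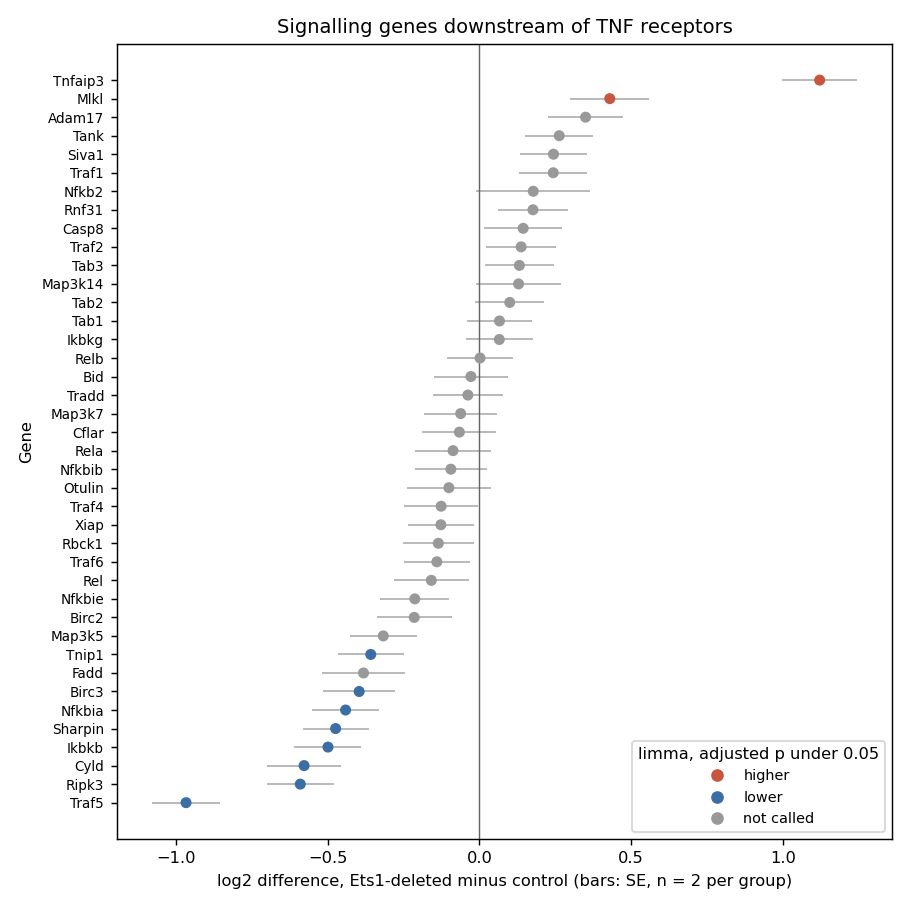
Log2 difference (Ets1-deleted minus control) of the 40 signalling genes with a probe set, with bars for the SE from limma (n = 2 per group) and colour for the call. Tnfaip3 stands at 1.12 and Traf5 at -0.97, and 30 of the 40 genes did not pass.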

How the data were processed

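RNA of sorted ICOS-positive cells was amplified, labelled with biotin and hybridised, per the labels' protocols. The deposited values are probe set intensity units that the authors made with RMA, per the submitters' processing notes; the sources used here name no software version. They were read as linear, which is an inference from their range (39.5 to 23291), and turned into log2. Array medians were 96.5 to 97.7, so no normalization was added.

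Probe sets were named through the platform annotation: 34958 of 45101 had 1 gene symbol. A gene was represented by the probe set with the highest mean log2 value. The gene IDs of all 34 members with a probe set matched RefSeq. The fit across all 10873 tested genes was lmFit and eBayes of limma 3.58.1 in R 4.3.3, two-sided, with 2 residual and 9.75 prior degrees of freedom. It was tested on simulated data. An exact two-sided permutation test of 2 against 2 arrays cannot go below p = 0.333 and was not used.

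The members, lists and alternatives were chosen with earlier results of these data known, and receptor and ligand classes after values were seen. Values are given for members past the threshold, for those over the 90th percentile of probe sets and for the rest; of signalling genes, those past it at 1.5-fold or more were named first. The alternatives tried were median centring, a second quantile normalization, no filter, a 70th percentile filter, the 5th percentile of each array subtracted with a floor of 16 units, the mean over probe sets, a replicate block, a variance trend, unshared variances, a threshold of 0.1 and leaving out each array.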

Additional observations from a re-analysis of the deposited data

How the results depend on the processing

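Calls rested on variance shared across genes: with each gene's own variance, 0 receptors, 0 ligands and 0 signalling genes passed in limma's linear model without moderation, and 13 of 10873 genes. At an unadjusted p under 0.05 that fit had 11 of 20 receptors, 6 of 8 ligands and 9 of 40 signalling genes. Over all tested genes it had 2607 of 10873. The stricter filter left 4 ligands to test, of which 3 passed, and 11 receptors, of which 9 passed. Of all 7493 genes it left, 2121 passed. The other alternatives with all 4 arrays gave 11 to 14 receptors, 6 ligands and 7 to 13 signalling genes, within 1.5 times the main counts. Leaving out 1 array also kept the counts within 1.5 times. Among the 17 called members, own variances aside, 197 of 199 values over these alternatives kept direction and call; the 2 others are Tnf and Tnfrsf23 without control 2. No called member changed sign under them, but in several of them the sign could not change. With no filter, the stricter filter, the replicate block and the variance trend, the log2 difference is that of the main fit. The same holds for the mean over probe sets where a member has 1 probe set. There only the call could change. Leaving out 1 array could not reverse a sign either, because the groups of all 17 called members did not overlap. Of other probe sets of called members, 8 of 8 had the same sign, but only 6 were above the limit for testing. Those under it, for Tnfrsf9 (0.04) and Tnfsf11 (0.17), say little about direction. With the replicate number as a block (replicate block), 12 receptors, 6 ligands and 13 signalling genes passed, beside 3252 of all 10873 tested genes. Tnfrsf13b was added there (adjusted p = 0.0433 in limma). The samples share only a number, and replicate differences of the groups correlated at 0.167 over genes.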

Other observations

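Some superfamily members outside the list of 37 had probe sets too. Relt, an orphan receptor gene, read 199 and 175 units in the controls and 225 and 213 in the Ets1-deleted arrays and did not pass (log2 difference 0.23 ± 0.12, adjusted p = 0.173 with limma). Tnfrsf11b, for osteoprotegerin, the decoy receptor of RANK ligand, read 101 and 97.9 units in the controls and 117 and 102 in the Ets1-deleted arrays (0.14 ± 0.12, adjusted p = 0.433 with limma). The B cell maturation receptor gene Tnfrsf17, the nerve growth factor receptor gene Ngfr, Eda, Edar and Eda2r of the ectodysplasin system were under the limit for testing, at 61.8 to 82.1 units.

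A probe set listed for both Tnfrsf22 and Tnfrsf23 read 308 and 311 units in the controls and 301 and 343 in the Ets1-deleted arrays. A probe set listed for Tnfsf12 with a neighbouring fusion gene read 126 and 132 units in the controls and 118 and 114 in the Ets1-deleted arrays (-0.16). Another, listed for Tnfsf12, Tnfsf13 and the fusion gene, read 73.4 and 61.4 units against 82.8 and 82.1, under the limit. Neither of the bright ones passed in a limma fit of all bright probe sets.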
